A study of Mus musculus with 4 samples.

Results

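The baseline transcript levels of newborn mouse islets were described across genes in the 2 wild-type libraries of a series of 4. Pancreatic islets, clusters of cells that release hormones into the blood, had been taken at postnatal day 0 from mice of strain 129sv with the genotype label Wild-Type. The other 2 libraries, labelled Mettl3/14nKO, were not used here, and the stated design of the series is an examination of RNA modifications. Ribosomal RNA had been depleted from total islet RNA, a directional kit was used, and paired ends were sequenced. The labels name no sorting of cells, so each library stands for whole islets with any other cells attached to them, and they do not say whether the libraries came from separate animals or litters. Spreads between the replicates may therefore be technical in part.

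The table held 22564 rows of protein-coding genes with 22481 symbols, and rows of 1 symbol were summed. Levels are FPKM, that is fragments divided by transcript length and by library size. A gene entered the description with at least 1 FPKM in both libraries, and 11503 symbols, 51.2% of those listed, did so. Replicate 1 held 1255526 fragments in genes and replicate 2 held 1617429. Of the remaining symbols, 6904 were listed at 0 in both libraries and 1211 reached 1 FPKM in only 1 of them. Just inside the limit stood Dgka at 1.18 and 1.0 FPKM, from 8 fragments in each library, and just outside it 5530401A14Rik at 0.998 and 1.14 FPKM, from 9 fragments in each. Throughout, paired values are replicate 1 and then replicate 2. Ranks are by the mean FPKM of the replicates, and a share is of the summed FPKM of the 11503 genes in that library.

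Islets hold several endocrine cell types, each named for its hormone: beta cells make insulin and amylin, alpha cells glucagon, delta cells somatostatin, gamma cells pancreatic polypeptide, and epsilon cells ghrelin. All these hormones are made as longer precursors that enter the endoplasmic reticulum, are cut by prohormone convertases and trimmed by carboxypeptidase E, and are stored in dense granules together with granins until they are released. Mouse beta cells are not yet mature at birth, when they still divide and respond weakly to glucose. Mice carry a pair of insulin genes, Ins1 and Ins2.

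Hormone transcripts led the ranking in both libraries. The 9 hormone genes, which are 0.0782% of the 11503 genes, held 35.2% of summed FPKM in replicate 1 and 36.6% in replicate 2 (mean 35.9% ± 0.997, SD, n = 2). Genes of the secretory route, which covered granins, processing enzymes, granule proteins, endoplasmic reticulum folding factors and other peptide messengers, held 2.95% and 2.90% (mean 2.93% ± 0.0386) with 100 of 119 listed genes above the limit. Mitochondrial genes held 5.0% and 4.61% (mean 4.80% ± 0.279), and cytosolic ribosomal protein genes 4.16% and 4.35% (mean 4.26% ± 0.138). Markers of non-endocrine cells held 0.609% and 0.507% (mean 0.558% ± 0.0717), with 87 of 176 listed genes above the limit. The other 11032 genes shared 52.1% and 51.1%. The order of the classes was the same in both libraries, and all 9 hormones, the defining markers of the labelled tissue, passed the limit.

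FPKM divides by transcript length, and hormone mRNAs are short, so the same classes were also counted in fragments. By fragments the hormone genes held 8.43% of replicate 1 (95% Wilson interval 8.39 to 8.48) and 8.78% of replicate 2 (8.74 to 8.82). Secretory genes held 3.99% and 4.08%, mitochondrial genes 2.94% and 2.72%, ribosomal protein genes 1.31% and 1.42%, and non-endocrine markers 1.16% and 0.886%. Hormones were the class with the largest share on both scales, while the secretory class stood above the mitochondrial class by fragments and below it by FPKM. These intervals cover counting error only.

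**Figure D1:**
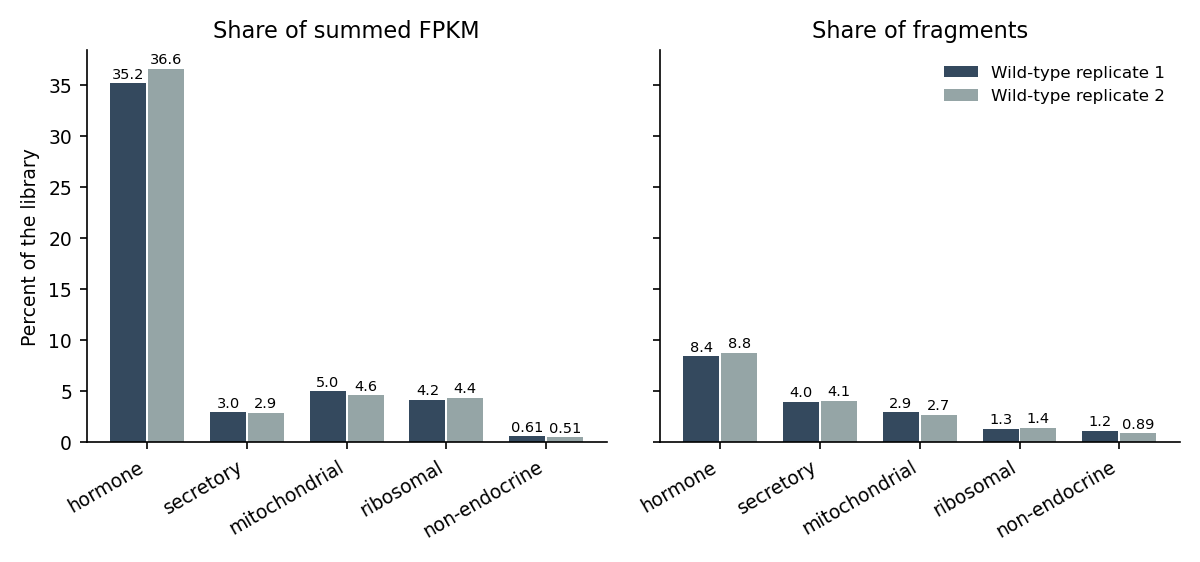
Percent of summed FPKM (left) and of fragments (right) held by 5 gene classes in wild-type replicates 1 and 2, with bars from 0 and values printed above them. The hormone bars stand at 35.2% and 36.6% by FPKM and at 8.43% and 8.78% by fragments.

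The distribution was steep at its top. The highest gene held 24.7% of summed FPKM in replicate 1 and 25.3% in replicate 2, the 10 highest 38.3% and 39.3%, and the 100 highest 47.9% and 49.0%. It took 147 genes in replicate 1 and 120 in replicate 2 to reach 50% of summed FPKM, against 957 and 963 genes to reach 50% of fragments. Only 14 genes stood at 1000 FPKM or more in both libraries, 185 at 100 or more and 4262 at 10 or more. The median gene had 7.79 and 8.57 FPKM, from a median of 46 and 60 fragments, so that most genes were measured with few fragments. The 10 highest genes were the same 10 in both libraries, and 26 of the 30 highest and 86 of the 100 highest were shared. Ranked by fragments in place of FPKM, 7 of the 10 highest, 20 of the 30 and 39 of the 100 were the same genes.

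**Figure D2:**
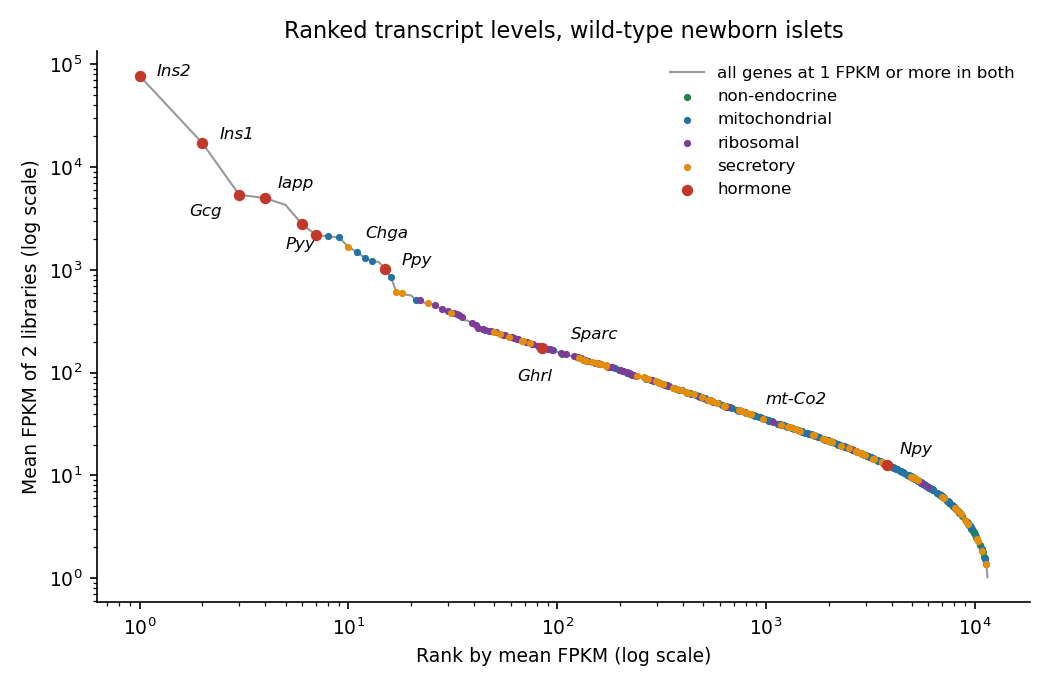
Mean FPKM of the wild-type libraries against rank, both on log axes, for the 11503 genes (grey line), with members of 5 classes as coloured points. Hormone genes hold ranks 1 to 4, 6, 7, 15, 85 and 3815, and Sparc, at rank 106, is the highest non-endocrine marker.

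Ins2 was the highest transcript, with 71944 FPKM from 48441 fragments in replicate 1 and 82684 FPKM from 64845 fragments in replicate 2. Ins1 came second, with 16177 and 18022 FPKM from 34077 and 44358 fragments. Ins2 exceeded Ins1 in both libraries, by a ratio of 4.45 and 4.59 in FPKM, while the ratio of their fragments was 1.42 and 1.46. The ratio also depended on the length used, since Ins1 (chr19:52264297-52265476, plus strand, GRCm38, GENCODE M21) has 1 coding transcript of 1062 bases and Ins2 (chr7:142678656-142743381, minus strand) has 9, of 259 to 918 bases. In replicate 1 the deposited values gave Ins2 1.51 FPKM per estimated count and Ins1 0.483, and with the longest coding transcript of each as its length the ratio was 1.64 and 1.69. Of the 50-base words of the longest coding transcripts, 0.806% of Ins2 and 0.691% of Ins1 were found in the other gene, and in no gene beside these.

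Glucagon, the alpha-cell hormone that raises blood glucose, followed at rank 3 with Gcg at 5756 and 5015 FPKM (chr2:62474530-62483650). Iapp, which encodes amylin and is released with insulin, stood at rank 4 with 4074 and 5912 FPKM (chr6:142298423-142303961). These neighbours changed places between the libraries, so their order is not beyond the spread. Pyy, which encodes peptide YY, had 2011 and 3548 FPKM at rank 6, and Sst, the delta-cell hormone that restrains insulin and glucagon release, 1709 and 2671 FPKM at rank 7. Pyy stood above Sst in FPKM within each library, although by fragments Sst stood above Pyy, with 1735 and 3143 fragments for Sst and 1497 and 2981 for Pyy. Ppy, the gamma-cell hormone, had 532 and 1501 FPKM at rank 15, from 404 and 1314 fragments. It lies beside Pyy on chromosome 11, at 102099930 to 102101319 on the minus strand, with Pyy at 102106676 to 102107832. Ghrl, which encodes ghrelin, had 146 and 205 FPKM at rank 85. Npy, neuropeptide Y, was far lower, with 9.68 and 15.8 FPKM from 9 and 17 fragments at rank 3815.

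Differences between the replicates are given on the log2(FPKM + 1) scale, replicate 1 minus replicate 2, after the median difference of -0.11 over all genes was subtracted. On that scale Ins2 differed by -0.09 and Ins1 by -0.05, whereas Iapp differed by -0.43, Sst by -0.53, Pyy by -0.71 and Ppy by -1.38. Gcg was the only hormone on the other side, at 0.31. Ppy was 2.61-fold higher in replicate 2 and the only hormone gene past 2-fold, where 3.8% of all 11503 genes were. Its fragments scaled to a common library total (CPM) stood in a ratio of 0.396 (95% exact interval 0.353 to 0.443), which counting error alone does not span. For Gcg that ratio was 1.24 (1.21 to 1.27) and for Ins1 0.990 (0.976 to 1.004). In bulk RNA, fewer cells of a type and less RNA per cell cannot be told apart.

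Promoter sequences of 7 hormone and granin genes among the 18 highest genes are shown because they differ in the core and cyclic-AMP response motifs near the annotated start. Ins2 was not matched in the promoter table, and Pyy and Chga are not printed, the last with neither motif in the stretches searched. Each is a RefSeq window of GRCm38.p6, from 130 bases before to 20 bases after the transcript start, on the strand of the gene. The starts were not checked against reads, so presence or absence of a motif holds only for the listed start. Capitals mark TATAA found on the coding strand from 45 to 15 bases upstream, and TGACGTCA, the palindromic cyclic-AMP response element, which reads the same on both strands. Ins1 carries no capitals, since its window holds no TGACGTCA and its TATAA letters lie farther upstream than the stretch searched.
Ins1 (chr19:52264167-52264316, plus strand): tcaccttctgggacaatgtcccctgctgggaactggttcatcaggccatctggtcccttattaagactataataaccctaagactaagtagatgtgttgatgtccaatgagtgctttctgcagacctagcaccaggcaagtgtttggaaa
Gcg (chr2:62483634-62483783, minus strand): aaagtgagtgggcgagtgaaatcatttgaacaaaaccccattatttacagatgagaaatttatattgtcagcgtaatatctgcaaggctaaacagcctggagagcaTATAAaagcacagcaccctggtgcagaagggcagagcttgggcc
Iapp (chr6:142298295-142298444, plus strand): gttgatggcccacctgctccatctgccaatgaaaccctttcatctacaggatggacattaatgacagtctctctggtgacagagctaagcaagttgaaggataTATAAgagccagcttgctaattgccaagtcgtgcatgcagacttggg
Ppy (chr11:102101300-102101449, minus strand): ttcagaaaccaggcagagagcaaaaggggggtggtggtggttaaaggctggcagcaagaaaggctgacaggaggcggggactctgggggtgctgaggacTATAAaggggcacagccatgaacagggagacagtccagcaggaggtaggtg
Sst (chr16:23890825-23890974, minus strand): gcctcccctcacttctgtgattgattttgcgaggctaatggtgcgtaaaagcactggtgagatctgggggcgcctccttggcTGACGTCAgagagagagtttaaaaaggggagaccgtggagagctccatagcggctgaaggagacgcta
Scg2 (chr1:79440007-79440156, minus strand): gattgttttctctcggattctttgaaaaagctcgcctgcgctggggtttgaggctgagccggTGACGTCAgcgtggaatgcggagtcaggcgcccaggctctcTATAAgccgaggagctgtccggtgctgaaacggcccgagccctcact
Chgb (chr2:132781512-132781661, plus strand): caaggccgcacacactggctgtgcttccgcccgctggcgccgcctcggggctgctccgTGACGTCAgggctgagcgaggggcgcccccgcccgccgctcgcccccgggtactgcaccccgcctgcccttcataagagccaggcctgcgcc

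TATAA began at -24 in Gcg, at -27 in Iapp, at -31 in Ppy and at -27 in Scg2. TGACGTCA began at -48 in Sst, at -68 in Scg2 and at -72 in Chgb, and Scg2 was the only gene printed that held both. Over the hormone, granin and processing-enzyme genes, 20 of 26 were matched in the promoter table, with 29 windows of 300 bases (250 before and 50 after the start). TATAA stood in 20.7% of these windows, from Furin, Gcg, Iapp, Ppy, Pyy and Scg2, and TGACGTCA in 13.8%, from Chgb, Pcsk1, Scg2 and Sst. TGACGTCA was not particular to this set. It stood in 8.33% of 72 windows of cytosolic ribosomal protein genes and 7.14% of 70 windows of nuclear respiratory chain genes. TATAA stood in 6.94% and 0% of the windows of those sets. Over all 32851 promoter windows of the same length, TATAA stood in 3.89% and TGACGTCA in 1.79%. These windows belong to 27025 symbols, against 22481 with a level here, so they include genes outside this description. Shares for the ranked genes are given by band below.

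The share of windows with TATAA was 11.8% for the 100 highest genes, 2.49% for ranks 101 to 1000, 2.03% for ranks 1001 to 5000, 1.64% for lower ranks, and 7.60% for genes under 1 FPKM in a library. Of the 100 highest genes, 75 were matched in the promoter table, with 102 windows, and a gene can have several windows. TATAA and TGACGTCA each stood in 12 of those 102. The bands of lower rank had 923, 4030 and 6089 windows. Among ranked genes the TATAA share was highest for the 100 highest and lowest for ranks 5001 and lower. TGACGTCA stood in 11.8%, 3.14%, 3.15%, 2.91% and 1.13% of the windows of the same bands. The longest annotated mRNA had a median of 1224 bases for the 100 highest genes, 2596 for ranks 101 to 1000, 3385 for ranks 1001 to 5000 and 3273 for lower ranks. FPKM divides by transcript length, and the part of that division in this gradient was not tested. In the annotation deposited with the table, 26% of the 100 highest genes had a term for the extracellular region or space and 33% a ribosome term, against 7.01% and 1.20% of the genes ranked 5001 and lower, 11.5% and 0.164% of those under 1 FPKM in a library, and 9.21% and 1.11% of all symbols. These are descriptions of the letters and terms, and no test was made of them.

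Granins, acidic proteins that help to pack hormones into granules, followed the hormones closely. Chga, chromogranin A, had 1697 and 1678 FPKM at rank 10, Scg2, secretogranin II, 598 and 613 FPKM at rank 17, and Chgb, chromogranin B, 597 and 583 FPKM at rank 18. These levels differed little between the libraries. Scg3 had 193 and 215 FPKM, Pcsk1n, which encodes an inhibitor of the convertase PC1/3, 183 and 204 FPKM, and Scg5, the chaperone of the convertase PC2, 119 and 137 FPKM. Vgf stood apart from the list at 18.6 and 18.0 FPKM (rank 2509). All 7 granins passed the limit, with a median rank of 68, and together they held 1.17% and 1.05% of summed FPKM.

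All 10 processing enzymes listed passed the limit, at levels that spanned a wide range. Cpe, the carboxypeptidase that trims the cut peptides, was highest, with 437 and 510 FPKM at rank 24. Pcsk2, the convertase PC2, had 334 and 427 FPKM at rank 31, and by fragments it stood at rank 10 of all genes. Pcsk1, the convertase PC1/3, had 71.2 and 88.4 FPKM at rank 308, below Pcsk2 in both libraries. Pam, which amidates peptide ends, had 117 and 127 FPKM at rank 160, and Ece1, the endothelin-converting enzyme, 232 and 242 FPKM at rank 53. Furin stood at 21.7 and 21.3 FPKM and Qpct, a glutaminyl cyclase, at 1.78 and 1.9 FPKM.

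Of the 34 genes of the granule membrane and of exocytosis, 33 passed the limit and 15 ranked among the 1000 highest. The most abundant were Ptprn2, a granule membrane phosphatase-like protein, with 122 and 146 FPKM at rank 133, Resp18, a secretory granule protein, with 109 and 138 FPKM, and Cplx2, the complexin that acts on the fusion machinery, with 113 and 123 FPKM. Sytl4, a Rab27 effector on insulin granules, had 123 and 110 FPKM, and Slc30a8, the granule zinc transporter, 83.5 and 103 FPKM. The vesicle fusion proteins Vamp2 and Snap25 had 53.3 and 52.5 FPKM and 37.5 and 46.5 FPKM. Of the 33 genes, 0 differed past 2-fold between the libraries, a count near the 3.8% of all genes.

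Of the 44 genes of endoplasmic reticulum entry and folding, 43 passed and 29 were among the 1000 highest. The chaperones led the list: Calr, calreticulin, had 247 and 250 FPKM at rank 50, Hsp90b1 206 and 240 FPKM at rank 59, and Hspa5, also called BiP, 182 and 224 FPKM at rank 69. The disulphide isomerases Pdia3 and P4hb had 137 and 142 FPKM and 120 and 142 FPKM. The list was slightly higher in replicate 2, with 33 of 43 genes on that side and a median log2 difference of -0.13, where the median over all genes is 0 by construction. Other peptide messengers were scarce. Only 7 of 24 passed the limit and 7 were listed at 0 in both libraries, and the highest was Ucn3, the urocortin that accompanies beta-cell maturation in mice, with 15.1 and 16.7 FPKM at rank 2984.

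Mitochondrially encoded mRNAs, which specify subunits of the respiratory chain, separated into a high and a low set. Among those on top were mt-Nd1 with 2196 and 2043 FPKM (rank 8), mt-Co1 with 2174 and 1963 FPKM (rank 9) and mt-Cytb with 1484 and 1477 FPKM (rank 11). mt-Nd2, mt-Nd4, mt-Nd5 and mt-Nd6 followed at ranks 12, 13, 16 and 21, the last with 547 and 470 FPKM. In the other set, mt-Co2 had 34.7 and 43.1 FPKM (rank 871), mt-Co3 16.7 and 19.5 FPKM, mt-Nd4l 18.8 and 13.6 FPKM, and mt-Nd3 5.23 and 13.9 FPKM from 2 and 6 fragments. mt-Atp6 and mt-Atp8 were under the limit, and their estimated counts rounded to 0 fragments in both libraries. Neither was listed at 0 FPKM in both. A count of 0 allows up to 2.39 CPM in replicate 1 and 1.85 CPM in replicate 2. None of the 13 lay between 43.1 and 470 FPKM.

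All of the low set except mt-Atp8 shared nearly all of its sequence with other annotated transcripts. In the high set, mt-Co1 and mt-Nd4 also shared much of theirs. Of the 50-base words of mt-Co2, 100% were found in transcripts of other genes, and the shares were 99.9% for mt-Co3, 99.5% for mt-Atp6, 98.8% for mt-Nd4l and 97.99% for mt-Nd3. The other genes were mostly annotated pseudogenes on chromosome 1, such as Gm28661 for mt-Co2 and Gm28437 for mt-Co3. For mt-Nd1, mt-Cytb and mt-Nd6 the share was 0%, for mt-Nd2 8.19% and for mt-Nd5 7.61%. mt-Co1 and mt-Nd4 were high with 51.1% and 62.2% shared, and mt-Atp8 was at 0 fragments with 0% shared. How such reads were counted by the authors is not stated. The deposited locus of mt-Nd4 (chrM:7765-11544) spans mt-Atp8, mt-Atp6, mt-Co3, mt-Nd3 and mt-Nd4l of the low set, and not mt-Co2. In the high set, mt-Cytb, mt-Nd5 and mt-Nd6 also share a deposited locus (chrM:11612-15288). The parts of read counting and of these loci in the levels were not tested.

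**Figure D3:**
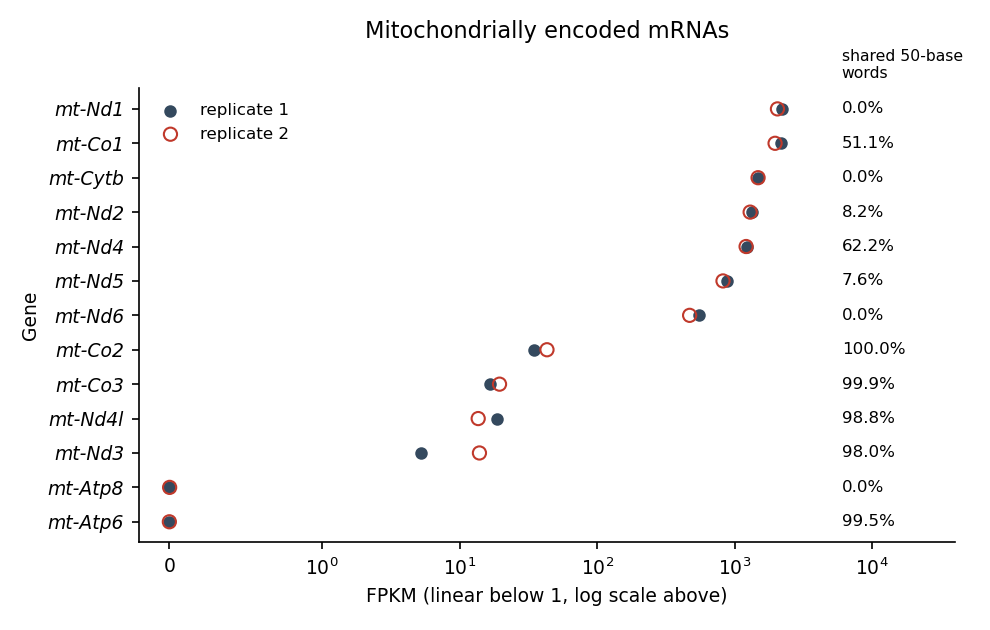
FPKM of the 13 mitochondrially encoded mRNAs in wild-type replicate 1 (filled) and replicate 2 (open), on an axis that is linear below 1 and logarithmic above it, with the percent of 50-base words shared with other genes printed at the right. The 7 upper genes lie between 470 and 2196 FPKM and the 6 lower ones at or below 43.1 FPKM.

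Nuclear genes of the respiratory chain were lower, with 78 of 79 above the limit and a median rank of 1184. Atp5b, a subunit of ATP synthase, led with 246 and 274 FPKM at rank 45, followed by the cytochrome oxidase subunits Cox8a with 150 and 181 FPKM and Cox6c with 120 and 145 FPKM. The largest difference between libraries in this list was that of Uqcr11, a small subunit of complex III, with 32.3 and 102 FPKM from 20 and 73 fragments. In all, 1 gene of the list was over 2-fold higher in replicate 1 and 5 in replicate 2, with background rates of 1.96% and 1.84% over all genes. Genes of the citric acid cycle and mitochondrial carriers all passed (29 of 29, median rank 1977), led by the ADP/ATP carrier Slc25a5 with 90.8 and 104 FPKM. Mitochondrial ribosomal protein genes all passed too (76 of 76) but ranked near the middle, at a median of 4881, in contrast to the cytosolic ribosomal protein genes, whose median rank was 134.

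Of the 82 cytosolic ribosomal protein genes, 81 passed, 34 were among the 100 highest genes and 75 among the 1000 highest. Rps29 had 484 and 530 FPKM at rank 22, Rps24 417 and 489 FPKM at rank 26, and Rpl19 416 and 412 FPKM at rank 28. Some members stood far from the rest. Rps27 had 53.9 and 1.32 FPKM, from 10 and 0 fragments, while Gm9846, a symbol whose transcript shares 91.1% of its 50-base words with Rps27, had 281 and 677 FPKM at rank 23. Rpl15 had 27.0 and 82.5 FPKM and Rps12 27.2 and 66.0 FPKM, and 30.2% and 83.2% of their words occur in other genes. Gapdh, a glycolytic enzyme often used to scale expression, was likewise at 6.77 and 1.82 FPKM from 9 and 2 fragments (rank 8497) and shares 82.5% of its words with other genes, 218 of them in all. Actb, beta-actin, with 14.2% shared, had 555 and 590 FPKM at rank 19. Levels of genes with near-identical copies are therefore uncertain here, and the part of the copies was not tested. Of the 60 highest genes, 12 share over 50% of their words with other genes and 17 share none.

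Lars2, a mitochondrial leucyl-tRNA synthetase, was not on any of the lists and stood at rank 5 with 3702 and 4882 FPKM. By fragments it was second only to Ins2, with 35598 and 55165 fragments, that is 28353 and 34107 CPM. Its transcript (gene at chr9:123366927-123462666) shares 3 of 3845 50-base words with other annotated transcripts, and sequence outside annotated transcripts was not compared. How reads that map to several places were counted is not stated, so this level carries the same uncertainty, and its source was not tested. Peg3, an imprinted gene with a long transcript of 8694 bases, likewise ranked higher by fragments, at 8, than by FPKM, at 40.

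Transcription factors that define endocrine cells were present at intermediate levels, with 32 of 37 above the limit and a median rank of 1502. Pax6 was the highest, with 196 and 222 FPKM at rank 66. Nkx2-2 had 67.5 and 76.4 FPKM, Isl1 59.8 and 67.0 FPKM, Neurod1 60.9 and 61.6 FPKM, Nkx6-1 45.2 and 47.3 FPKM, and Pdx1, a regulator of insulin transcription, 38.7 and 40.6 FPKM at rank 843. Mafa, which rises as mouse beta cells mature, had 81.8 and 51.2 FPKM, from 186 and 136 fragments, and its CPM ratio was 1.76 (95% exact interval 1.41 to 2.21). Neurog3, the factor of endocrine progenitors, was low but detected, at 2.87 and 3.68 FPKM from 10 and 15 fragments, and Pax4 was under the limit at 0.330 and 0.326 FPKM.

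All 32 genes of beta-cell function passed the limit. Beside the hormones, G6pc2, the islet glucose-6-phosphatase, had 123 and 133 FPKM, Abcc8, the sulphonylurea receptor, 81.7 and 101 FPKM, Glp1r 40.6 and 48.8 FPKM, Slc2a2, the glucose transporter GLUT2, 16.7 and 28.6 FPKM, and Kcnj11, the channel partner of Abcc8, 19.1 and 25.8 FPKM. Alpha-cell markers spanned a wide range below Gcg. Of 14 alpha-cell genes 13 passed, with a median rank of 4992, and Slc38a5, an amino acid transporter, had 28.3 and 34.1 FPKM. In the list for delta, gamma and epsilon cells, Rbp4, retinol-binding protein, had 141 and 227 FPKM at rank 80, Hadh 83.9 and 102 FPKM, and Hhex, the delta-cell factor, 4.56 and 6.31 FPKM.

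Genes kept low in mature beta cells had a median of 5.44 and 5.38 FPKM over the 20 listed, none among the 1000 highest and 18 above the limit. Ldha, lactate dehydrogenase A, was the highest, at 17.2 and 25.7 FPKM. Division genes were all detected above the limit (29 of 29). Ccnd2, the cyclin that drives beta-cell division in young mice, had 85.2 and 86.2 FPKM at rank 275 and its partner Cdk4 61.2 and 74.9 FPKM, while the proliferation marker Mki67 had 25.7 and 28.6 FPKM from 664 and 871 fragments and Top2a 23.1 and 26.9 FPKM. Which islet or attached cells carried these transcripts is not resolved in bulk RNA. Of the 21 imprinted and fetal growth genes 19 passed, with a median rank of 1397, and 2 were among the 100 highest. Gnas, which encodes the stimulatory G protein alpha subunit, had 489 and 443 FPKM at rank 25, and Peg3 276 and 306 FPKM. Dlk1 had 84.8 and 93.9 FPKM, and Igf2, the fetal growth factor, 93.9 and 76.3 FPKM at rank 280.

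Markers of cells other than endocrine cells were led by mesenchyme. Summed over all listed genes, in CPM, mesenchymal, stellate and pericyte markers reached 8805 and 6182 CPM over 29 genes, endothelial markers 1587 and 1303 CPM over 20 genes, and duct markers 627 and 650 CPM over 12 genes. Neural and glial markers reached 173 and 177 CPM, acinar markers 121 and 126 CPM over 41 genes, erythroid markers 115 and 224 CPM, and leukocyte markers 75.7 and 168 CPM. Mesothelial (35.0 and 76.0 CPM), hepatocyte (35.0 and 24.7 CPM) and adipocyte lists (12.7 and 3.71 CPM) were lowest. The lists differ in size and in the abundance of their genes, so these sums rank transcripts and not cells.

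**Figure D4:**
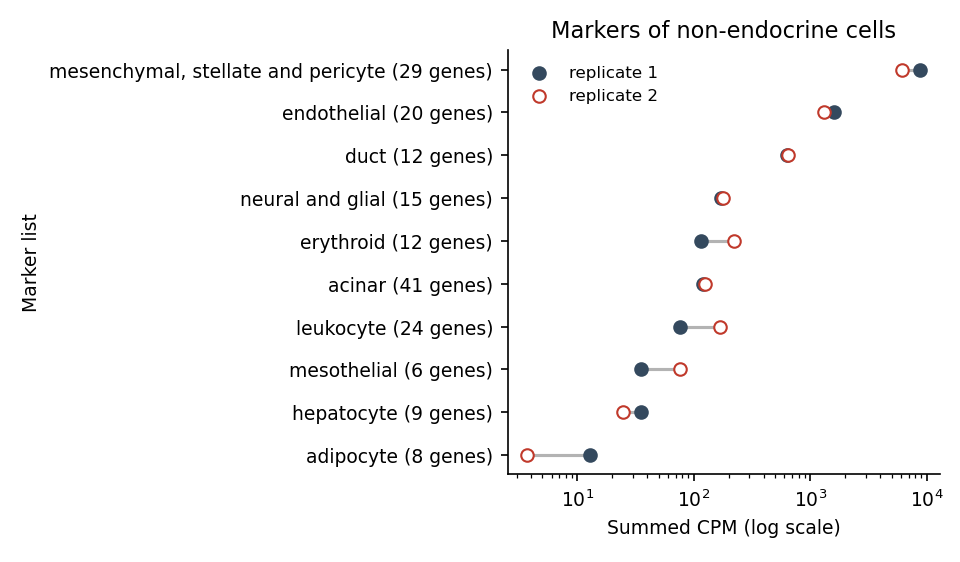
Summed CPM, that is fragments scaled to a common library total, on a log axis, of 10 lists of non-endocrine markers in wild-type replicate 1 (filled) and replicate 2 (open). Mesenchymal markers stand at 8805 and 6182, while acinar and duct markers nearly coincide between the libraries.

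Of the 29 mesenchymal genes 26 passed the limit. Sparc, a matrix protein, had 173 and 134 FPKM at rank 106, the collagen genes Col3a1 and Col1a1 had 122 and 86.9 FPKM and 101 and 65.9 FPKM, and Mgp, matrix Gla protein, 101 and 50.3 FPKM. Replicate 1 was higher in 24 of the 26 genes, with a median log2 difference of 0.47, and 4 of them (Fbn1, Postn, Mgp and Mfap4) were over 2-fold higher there, as were 1.96% of all genes. Postn, periostin, had 60.7 and 26.6 FPKM from 404 and 204 fragments, with a CPM ratio of 2.55 (95% exact interval 2.15 to 3.03). Endothelial markers leaned the same way in 14 of 19 genes after centring, with a median of 0.15. The most abundant were Eng with 36.1 and 37.5 FPKM and Plvap with 33.2 and 34.8 FPKM. Before the median difference was subtracted, both stood slightly higher in replicate 2. Of the hormone genes, Iapp, Sst, Pyy and Ppy were higher in replicate 2, where most mesenchymal genes were lower. Ins2 was only 1.06-fold apart, and for Ins1, Ghrl and Npy the 95% exact interval of the CPM ratio held 1. Gcg was higher in replicate 1. The part of the mesenchymal share in the hormone differences was not tested.

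Acinar markers were scarce in both libraries. Of the 41 acinar genes, which encode digestive enzymes, 9 passed the limit and 8 were listed at 0 in both. Ctrb1, chymotrypsinogen, was the highest with 34.5 and 34.4 FPKM at rank 1021, and Cpa1 had 1.39 and 2.38 FPKM. Krt7, a ductal keratin, stood at 58.1 and 67.5 FPKM at rank 435, but Cftr, the duct chloride channel, was at 0.741 and 0.124 FPKM and Mmp7 at 0, and Sox9 had 2.14 and 3.89 FPKM. The duct list was thus carried by a few genes.

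Blood-cell markers were higher in replicate 2. Leukocyte markers had 95 and 271 fragments in all, and 9 of the 10 that passed the limit were higher in replicate 2, 5 of them past 2-fold, as were 1.84% of all genes. Lyz2, a lysozyme of myeloid cells, had 1.09 and 13.3 FPKM from 3 and 43 fragments, and S100a9, a neutrophil protein, 1.24 and 22.8 FPKM from 1 and 21 fragments. Ptprc, the pan-leukocyte CD45, was at 0.174 and 1.20 FPKM. The beta-globin Hbb-bs had 38.5 and 129 FPKM, and 65.8% of its 50-base words are shared with Hbb-bt. Wt1, a mesothelial factor, had 0.796 and 6.62 FPKM from 6 and 44 fragments. Of the adipocyte genes 6 of 8 were at 0 in both libraries, Adipoq among them. All 4 Y-linked genes listed were above the limit in both libraries, Eif2s3y with 22.5 and 30.7 FPKM.

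Across the 11503 genes the libraries ranked transcripts alike. Pearson's r of log2(FPKM + 1) was 0.946 and Spearman's rho of FPKM 0.929. These describe 2 libraries of 1 kind across genes, which are not independent replicates. On the linear scale r was 0.999, and 0.990 without Ins2. The median gene was 1.18-fold apart, the SD of the centred log2 difference was 0.45, and 437 genes (3.8%) were over 2-fold apart, 225 of them (1.96%) higher in replicate 1 and 212 (1.84%) higher in replicate 2. Of the 437 genes, 227 had under 20 fragments on average. Among the 9175 genes with 20 or more, 210 (2.29%) were over 2-fold apart.

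The spread shrank with depth but stayed above counting error for all but the scarcest genes. The SD of the log2 CPM ratio was 0.72 for genes of 5 to 20 fragments, where counting alone gives 0.64. It was 0.44 against 0.33 for 20 to 100 fragments, 0.24 against 0.16 for 100 to 500, and 0.20 against 0.07 from 500 fragments on. Of the 9175 genes with 20 or more fragments, the 95% exact interval of the CPM ratio left out 1 for 1243 (13.5%). FPKM and fragments did not always move together. Of the 210 deeper genes over 2-fold apart in FPKM, the interval of the CPM ratio held 1 for 90. Manba, a lysosomal mannosidase, had 17.0 and 4.35 FPKM from 30 and 45 fragments, and Pithd1 39.3 and 12.4 FPKM from 45 fragments in each library.

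**Figure D5:**
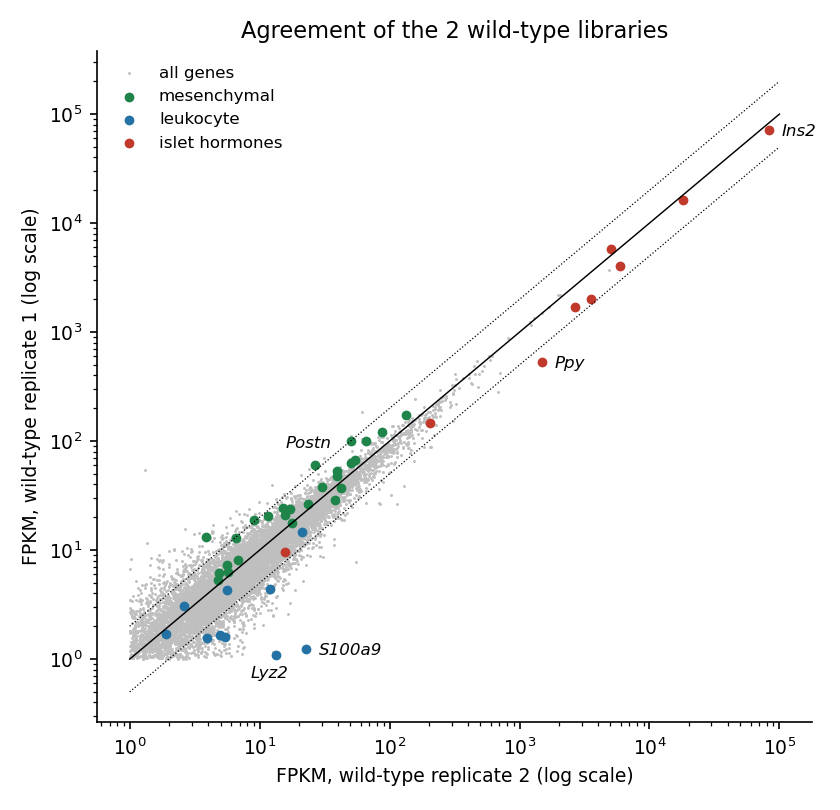
FPKM of 11503 genes in wild-type replicate 1 (vertical) against replicate 2 (horizontal), both on log axes, with the line of equality (solid) and lines 2-fold from it (dotted). Ppy lies below the lower dotted line at 532 and 1501 FPKM, most mesenchymal markers lie above equality, and Lyz2 and S100a9 lie below it.

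Among the deeper genes, the largest differences toward replicate 1 were those of Iqcc, with 15.6 and 2.68 FPKM, Manba, Mroh7, Sh2d3c, Rcor2, Zbtb25, Ccdc130, Pithd1, Gm10275 and Zbtb37, which were 3.16 to 4.87-fold apart. Toward replicate 2 they were those of Lyz2, at 6.35-fold, Nt5c2, a cytosolic nucleotidase, with 1.17 and 12.8 FPKM from 9 and 87 fragments, Clcn7, RPL24 (a symbol listed apart from Rpl24), Itga9, Arhgap1, C3, Pkib, Esco1 and E2f3, down to 3.21-fold. C3, the complement component, had 2.06 and 10.7 FPKM from 25 and 162 fragments. For 6 of these 20 genes the interval of the CPM ratio held 1. Apart from Lyz2, none of the 20 is on a marker list.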

How the data were processed

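Groups and replicate numbers came from the sample labels, and both Wild-Type libraries entered. Per the submitters' processing notes, the build was mm10 and the tools were Cufflinks, Cuffdiff, HISAT2 2.0.4 and cutadapt 1.9.3. No filter, annotation release or strand setting is given in those notes, so a gene may hold fragments of an overlapping neighbour. FPKM was computed by the authors, per the file headers. Their deposited estimated counts are not whole: 92.6% and 92.3% of values lie within 0.01 of whole multiples of a step (0.982 in replicate 1, 0.835 in replicate 2), and dividing by it and rounding gave the fragments. CPM is fragments scaled to the library total. Rows of 1 symbol were summed, and genes needed 1 FPKM in both libraries. Differences use log2(FPKM + 1), centred on the median. No test was made, since 1 group was described.

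Coordinates come from GENCODE M21 by gene ID (11442 of 11503 matched), because deposited loci often span several genes. The rule for named genes took the 30 highest, of which the text gives those its results turn on, every hormone, up to 6 members of each list by level, defining members under 1 FPKM, members over 2-fold apart, and the 10 largest differences in each direction. Further members were named for their known roles after their values were seen. Values of a few named genes are not reported here. Members and lists were chosen with earlier results of these data known. Python 3.11.15 with numpy 2.4.6, pandas 2.3.3, scipy 1.17.1 and matplotlib 3.10.9 was used, and the scripts were tested on simulated data.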

Additional observations from a re-analysis of the deposited data

How the results depend on the processing

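Hormone genes, 35.9% of summed FPKM, held 8.61% by CPM and 24.5% by counts per kilobase of the longest coding transcript, an alternative added after the data were seen. The 10 highest genes (38.8%) held 13.6% and 29.1% on these scales, secretory genes (2.93%) 4.03% and 4.06%, mitochondrial genes (4.80%) 2.83% and 5.93%, and non-endocrine markers (0.558%) 1.02% and 0.774%. With at least 5 FPKM required, hormones held 37.7%, secretory genes 3.06% and the 10 highest genes 40.8%. Without the mitochondrially encoded genes, hormones held 37.0%, secretory genes 3.02% and mitochondrial genes 1.72%.

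Spearman's rho (0.929) was 0.937 at a limit of 0.5 FPKM, 0.901 at 5 FPKM, 0.961 with no filter, 0.967 by CPM and 0.952 per kilobase. The share of genes over 2-fold apart (3.80%) was 4.34% at 0.5 FPKM, 1.67% at 5 FPKM, 3.31% by CPM and 7.15% with a pseudocount of 0. With each library left out in turn, 11997 to 12220 genes reached 1 FPKM, hormones held 35.2% to 36.6%, secretory genes 2.90% to 2.95%, mitochondrial genes 4.61% to 5.0%, non-endocrine markers 0.507% to 0.609% and the 10 highest genes 38.3% to 39.3%. Of all alternative values, 25 moved past a set limit and are given above, and 37 did not. The limit for shares of summed FPKM was the spread between the replicates. For the correlation and the share over 2-fold apart it was a 95% interval over genes, and for the gene count a fixed fold. Shares with a library left out cannot pass the spread between the replicates by construction, so their place among the 37 shows nothing. No paired analysis was possible because only 1 group was described and no test between groups was made.

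Depth limits the lower ranks, since the median gene had 46 and 60 fragments, and fragments without molecular identifiers are not independent molecules. With 2 libraries of 1 group, the spread between them is the only error, and its source was not tested.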
